A study of Mus musculus with 6 samples.

Results

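The 102 genes described here were higher in the hearts of mice given angiotensin II (Ang II) after both 7 and 28 days of infusion, and by a like amount at both times. They were chosen from the 22556 genes of the deposited table by their own values in RPKM, a read count corrected for the length of the transcript and the size of the library. A gene was taken where its lowest value in the 4 Ang II libraries was at least 1.5 times the higher of both controls, its 28 day mean was 0.67 to 1.5 times its 7 day mean, and its mean over all 6 libraries was at least 2 RPKM. A mean of at least 2 RPKM was reached by 9555 genes, and 168 of these met the condition on the lowest Ang II value, which 1.79% of the 11096 genes with a mean of at least 1 RPKM did. Of the 168, 41 lay below the 28 to 7 day window, 16 lay above it and 111 lay within it. Another 9 genes within the window were left out by their symbols, namely Acta1, Ankrd1, Ankrd23, Atf3, Colq, Hspb1, Hspb6, Hspb7 and Rcan1, which left the 102 members. Since all 3 comparisons between the groups chose the members, their values are given as a description, without a test.

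The hearts came from wild-type (WT) mice, and RNA was sequenced in 3 groups of 2 libraries each. Controls are entered under day 0 of infusion, and the other groups received Ang II at 1000 ng per kg per min under the skin from osmotic minipumps for 7 or 28 days. No transgene or further allele is named for any group. The labels do not give the age or sex of the mice, what the controls received, the time of day at collection, or whether each library came from 1 mouse.

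Ang II is a peptide hormone that constricts arteries and acts on heart cells through a G protein-coupled receptor, and the raised blood pressure also stretches the ventricle wall. Loaded cardiomyocytes enlarge and rebuild the Z disc, which anchors actin filaments at the sarcomere's edge, and the costamere and intercalated disc, which pass force to the matrix and to the next cell. Actin assembly frees cofactors of serum response factor (SRF), which binds CArG boxes near genes of the cytoskeleton, while stretch also acts through YAP and TEAD factors, which bind MCAT elements. Fibroblasts of the loaded heart secrete matrix and growth factors in the same weeks.

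Promoter sequences of 5 members are shown because they carry the letters of elements bound by load-responsive factors. The 28 day replicates of Fhl1, Xirp2, Flnc and Cyr61 differed by over 1.5-fold. They run 5′ to 3′ on the gene's strand over 300 bases, 250 before and 50 from the transcript start, as RefSeq lists them on GRCm38.p6. Srf lies at chr17:46556113-46556412 on the minus strand, Fhl1 at chrX:56779433-56779732 and Xirp2 at chr2:67445752-67446051 on the plus strand, Flnc at chr6:29432903-29433202 on the plus strand and Cyr61 at chr3:145649936-145650235 on the minus strand. RefSeq lists 2 promoters each for Fhl1 and Flnc, of which 1 is shown, and names Cyr61 as Ccn1. Capitals mark matches to the CArG box in Srf and Fhl1, to an AP-1 and a MEF2 element in Xirp2, and to an MCAT element in Flnc and Cyr61.
Srf: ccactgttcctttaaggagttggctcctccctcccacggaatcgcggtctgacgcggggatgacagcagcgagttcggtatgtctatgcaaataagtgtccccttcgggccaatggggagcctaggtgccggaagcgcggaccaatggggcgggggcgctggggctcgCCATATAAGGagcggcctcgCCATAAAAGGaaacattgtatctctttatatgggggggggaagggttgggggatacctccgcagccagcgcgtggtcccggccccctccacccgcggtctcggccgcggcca
Fhl1: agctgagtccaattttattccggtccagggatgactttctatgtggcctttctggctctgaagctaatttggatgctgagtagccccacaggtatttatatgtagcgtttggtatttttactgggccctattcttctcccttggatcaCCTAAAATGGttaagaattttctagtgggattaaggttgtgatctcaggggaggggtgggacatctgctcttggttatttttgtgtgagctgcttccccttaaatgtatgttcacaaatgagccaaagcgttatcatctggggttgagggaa
Xirp2: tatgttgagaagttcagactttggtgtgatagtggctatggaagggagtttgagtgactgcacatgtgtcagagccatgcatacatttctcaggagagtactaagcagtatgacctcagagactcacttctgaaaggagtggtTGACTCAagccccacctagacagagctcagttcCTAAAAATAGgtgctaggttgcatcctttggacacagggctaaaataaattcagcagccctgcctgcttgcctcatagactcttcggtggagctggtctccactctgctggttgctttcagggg
Flnc: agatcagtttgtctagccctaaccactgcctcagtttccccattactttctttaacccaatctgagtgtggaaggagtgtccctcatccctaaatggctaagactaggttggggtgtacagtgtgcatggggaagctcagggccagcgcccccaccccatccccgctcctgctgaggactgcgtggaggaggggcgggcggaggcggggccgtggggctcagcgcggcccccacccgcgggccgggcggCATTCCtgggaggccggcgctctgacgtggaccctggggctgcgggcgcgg
Cyr61: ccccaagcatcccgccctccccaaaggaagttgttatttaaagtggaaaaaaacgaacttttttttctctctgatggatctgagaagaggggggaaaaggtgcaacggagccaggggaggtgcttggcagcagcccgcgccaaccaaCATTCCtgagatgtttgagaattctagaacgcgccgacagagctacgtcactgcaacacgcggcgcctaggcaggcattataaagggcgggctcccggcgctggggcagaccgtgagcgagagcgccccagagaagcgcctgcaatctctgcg
The Srf promoter held 2 CArG matches, at bases -82 to -73 and -62 to -53 from the start, where the start base is 1. The Fhl1 match lay at -102 to -93. In Xirp2 the AP-1 match lay at -107 to -101 and the MEF2 match at -74 to -65. The MCAT match lay at -103 to -98 in Cyr61 and spanned the start in Flnc, at -1 to 5, and the other listed Flnc promoter held the same element.

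Most members were around 2-fold higher than in controls. By the means of each group the quartiles of the fold change were 1.91, 2.27 and 2.72 at 7 days and 1.83, 2.06 and 2.61 at 28 days. A change of over 2-fold was seen in 67 members at 7 days, in 55 at 28 days and in 43 at both, and 12 were over 3-fold at both. On the log2(RPKM + 0.5) scale, the median change of the members was 1.02 at 7 days, against 0.14 over the 11096 genes tested, and 0.93 at 28 days, against 0.01 over all tested genes. Members lay between 0.64 and 2.52 at 7 days and between 0.51 and 2.62 at 28 days. All 102 had passed the filter on low values, which the rule fixed.

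**Figure D1:**
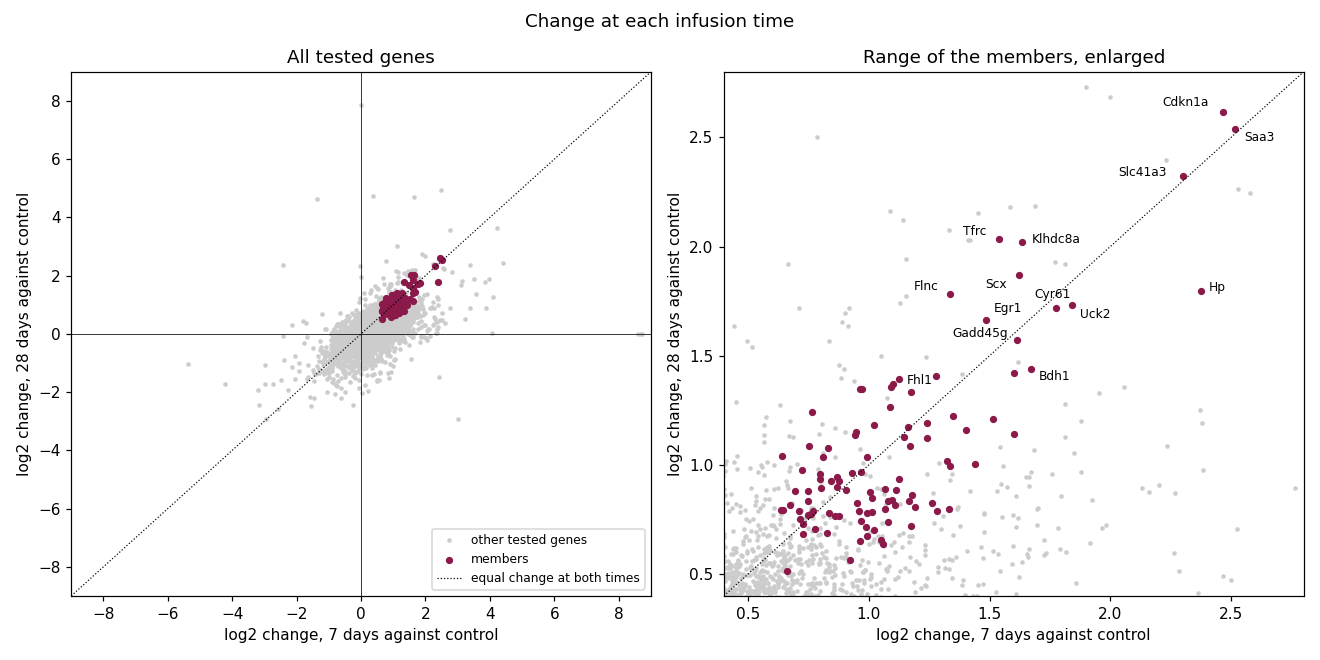
Change of each tested gene at 28 days (vertical axis) against its change at 7 days (horizontal axis), both as log2 differences from the control mean on the log2(RPKM + 0.5) scale. Grey points are other tested genes, red points the 102 members and the dotted line equal change; the right panel enlarges the members' range, and the members lie at 0.64 or more at 7 days and 0.51 or more at 28 days because the rule put them there.

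Between the infusion times the members were about level, within the window that the rule set. The 28 day mean was above the 7 day mean in 49 members and below it in 53, and the median ratio of the means was 0.995. The ratio lay from 0.8 to the inverse of 0.8 in 69 members, above that range in 12 and below it in 21. For members, statements below that both libraries of 1 time lay above both of the other describe 2 libraries each and were not tested. How many of all tested genes were so separated was not counted. Over all tested genes the median log2 difference of 28 against 7 days was -0.12 as deposited and 0.02 after median ratio scaling. Most members were of low or middle abundance: 42 had a mean of 2 to 5 RPKM, 33 of 5 to 20 RPKM and 27 of 20 RPKM or more, with a median of 6.20 RPKM and a range of 2.01 to 830 RPKM. With moderated limma tests and Benjamini-Hochberg adjustment, 13.2% of all tested genes passed as higher at 7 days and 2.87% at 28 days. At 7 days these were 1461 genes, with 252 lower, but 710 and 450 after median ratio scaling. The members passing were 96 and 80 of 102, and nothing is read from these counts, since the rule used the same values.

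Depth, estimated from the steps of low RPKM values, relative to control replicate 1 was 1.05 for control replicate 2, 1.17 and 1.14 at 7 days, and 0.985 and 0.89 at 28 days. Between 15636 and 16036 genes were above 0 RPKM in a library. Relative to the control mean, the members' median log2 value was 0.99 and 1.07 at 7 days and 1.01 and 0.87 at 28 days, and nothing is read from these medians, since the rule set a minimum in each Ang II library. In the controls 69 members were higher in replicate 2 and 33 in replicate 1. The summed RPKM of 10 cardiomyocyte markers, such as Tnnt2 and Myl2, was 54339 and 53348 in controls, 60635 and 49262 at 7 days and 59966 and 63362 at 28 days. All 10 T and B cell markers were under 1 RPKM in every library. In bulk tissue a change in the number of cells of a type and a change in RNA per cell cannot be told apart.

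**Figure D2:**
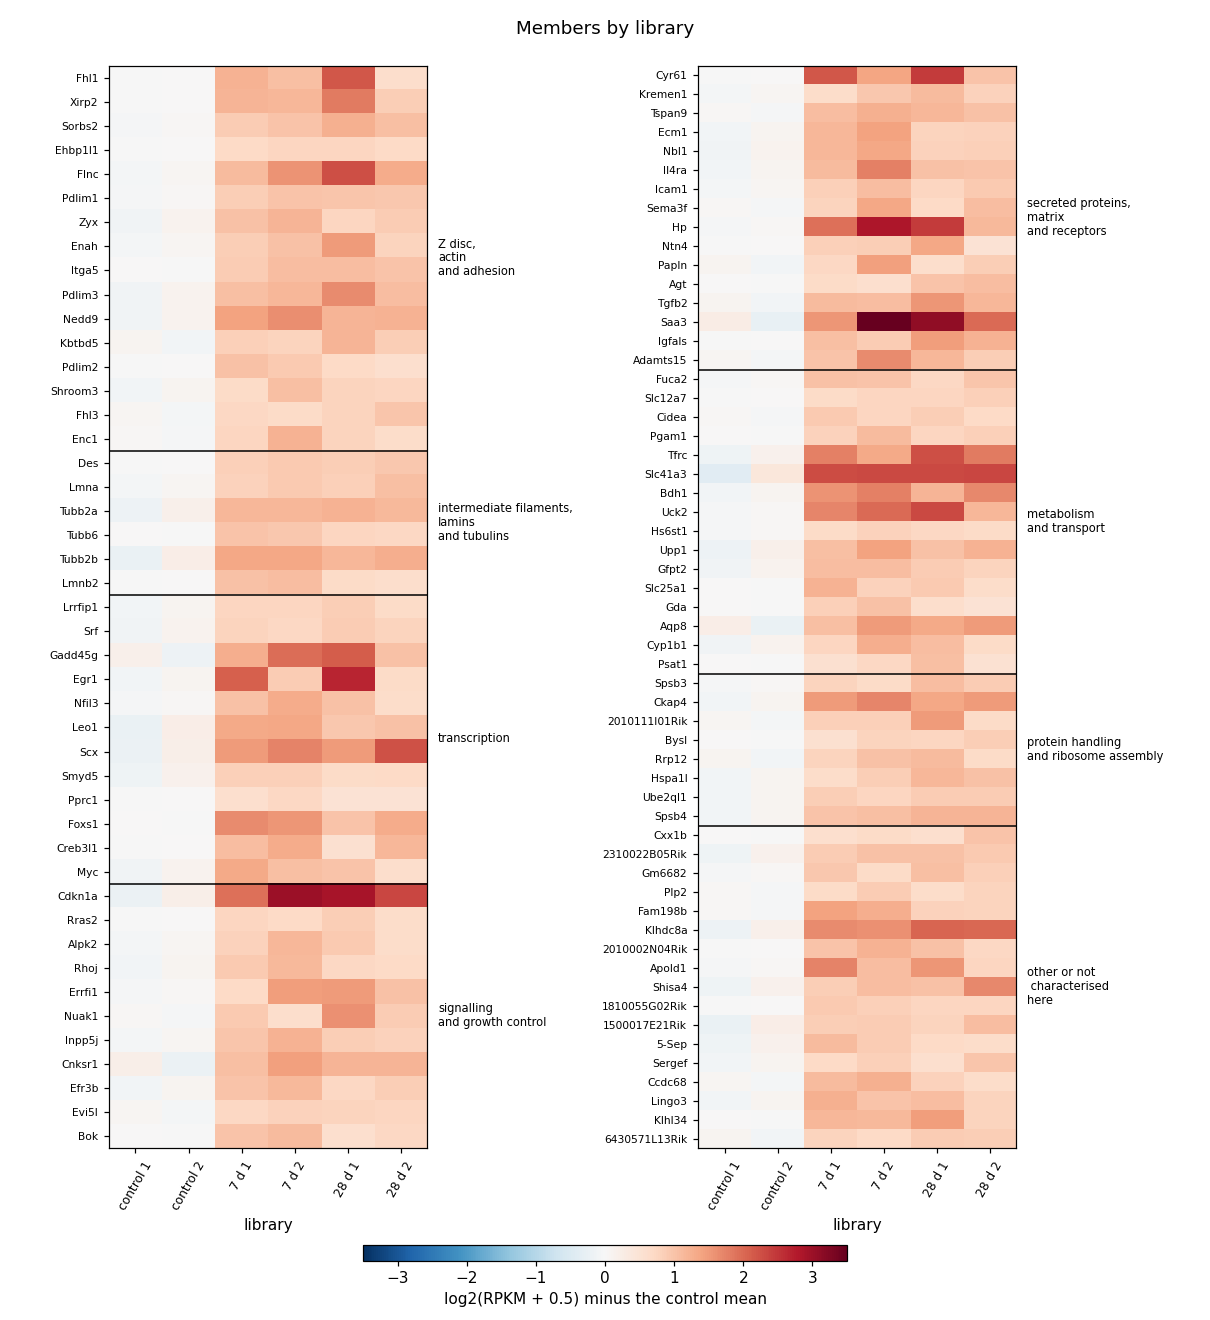
Each row is 1 of the 102 members, grouped by role and ordered within a role by mean RPKM; each column is 1 of the 6 libraries. Colour gives the log2(RPKM + 0.5) value minus the gene's control mean, and the darkest red cells include Saa3, Cdkn1a and Hp in 7 day replicate 2 and Egr1 and Cyr61 in 28 day replicate 1.

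By role, 16 members were genes of the Z disc, actin filaments and adhesion sites, with a median change of 2.06-fold at 7 days and 2.14-fold at 28 days. The 28 day mean was above the 7 day mean in 11 of the 16. These include 5, Fhl1, Xirp2, Flnc, Enah and Pdlim3, whose first 28 day library was over 1.5 times the second. In Fhl1, Xirp2 and Enah the second 28 day library lay below both 7 day libraries. Roles were assigned by hand with the values in view, only to order the description. Flnc encodes filamin C, which crosslinks actin at the Z disc and binds mechanosensing complexes. It had 17.2 and 19.1 RPKM in controls, 39.8 and 54.5 RPKM at 7 days and 88.7 and 45.7 RPKM at 28 days. The first 28 day library was the highest, and the second lay between both 7 day values. Its change was 2.60-fold at 7 days and 3.70-fold at 28 days, the largest 28 day change of this set.

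Fhl1, a LIM domain protein that binds titin, had 38.6 and 39.4 RPKM in controls, 90.4 and 80.9 RPKM at 7 days and 178 and 59.6 RPKM at 28 days. Both controls and both 7 day libraries were close to each other, but the 28 day replicates lay on both sides of the 7 day values and differed 2.99-fold. Xirp2, a Xin repeat protein of the intercalated disc, showed the same order of libraries. It had 28.1 and 28.9 RPKM in controls, 66.0 and 64.1 RPKM at 7 days and 101 and 52.0 RPKM at 28 days. The means of Fhl1 at 28 days, 119 ± 83.8 RPKM, and of Xirp2, 76.6 ± 34.7 RPKM (SD, n = 2), therefore carry wide errors.

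Sorbs2, an adaptor between Z disc, costamere and signalling kinases, was even between replicates, with 31.4 and 33.0 RPKM in controls, 60.2 and 65.0 RPKM at 7 days and 77.2 and 67.4 RPKM at 28 days. Both 28 day libraries lay above both 7 day libraries. Ehbp1l1, a Rab effector in membrane traffic, was the most even of the abundant members, with 33.6 and 34.9 RPKM in controls, 56.3 and 57.8 RPKM at 7 days and 57.8 and 56.3 RPKM at 28 days. The infusion times could not be separated for this gene, at 57.1 ± 1.01 RPKM at 7 days and 57.1 ± 1.06 RPKM at 28 days.

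Further members of the actin-binding PDZ-LIM family were Pdlim1, Pdlim2 and Pdlim3, the first and the third being Z disc proteins that bind alpha-actinin. Pdlim1 had means of 15.6 ± 0.679, 30.2 ± 1.95 and 30.9 ± 0.452 RPKM (SD, n = 2) in controls and at 7 and 28 days. Pdlim3, the next tested gene to Sorbs2 on chromosome 8, was 2.22-fold and 2.75-fold higher at 7 and 28 days, with replicates of 22.4 and 14.7 RPKM at 28 days. Enah, which lengthens actin filaments and sits at the intercalated disc, was 1.96-fold and 2.32-fold higher. Zyxin (Zyx), which moves to strained actin fibres, leaned the other way, with 2.19-fold at 7 days and 1.78-fold at 28 days. Nedd9, a focal adhesion scaffold, was 3.15-fold higher at 7 days and 2.52-fold at 28 days. Itga5, the fibronectin receptor's alpha chain, had 10.3 and 10.1 RPKM in controls, 19.4 and 22.2 RPKM at 7 days and 21.9 and 20.8 RPKM at 28 days, and its times overlapped. Kbtbd5, now Klhl40, which protects thin filament proteins in skeletal muscle, had 4.39 and 3.81 RPKM in controls, 7.72 and 7.37 RPKM at 7 days and 10.0 and 7.91 RPKM at 28 days, with both 28 day libraries above both 7 day libraries. The remaining 4, Fhl3, Pdlim2, Shroom3 and Enc1, were 1.78 to 2.31-fold higher at 7 days and 1.66 to 2.06-fold at 28 days.

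**Figure D3:**
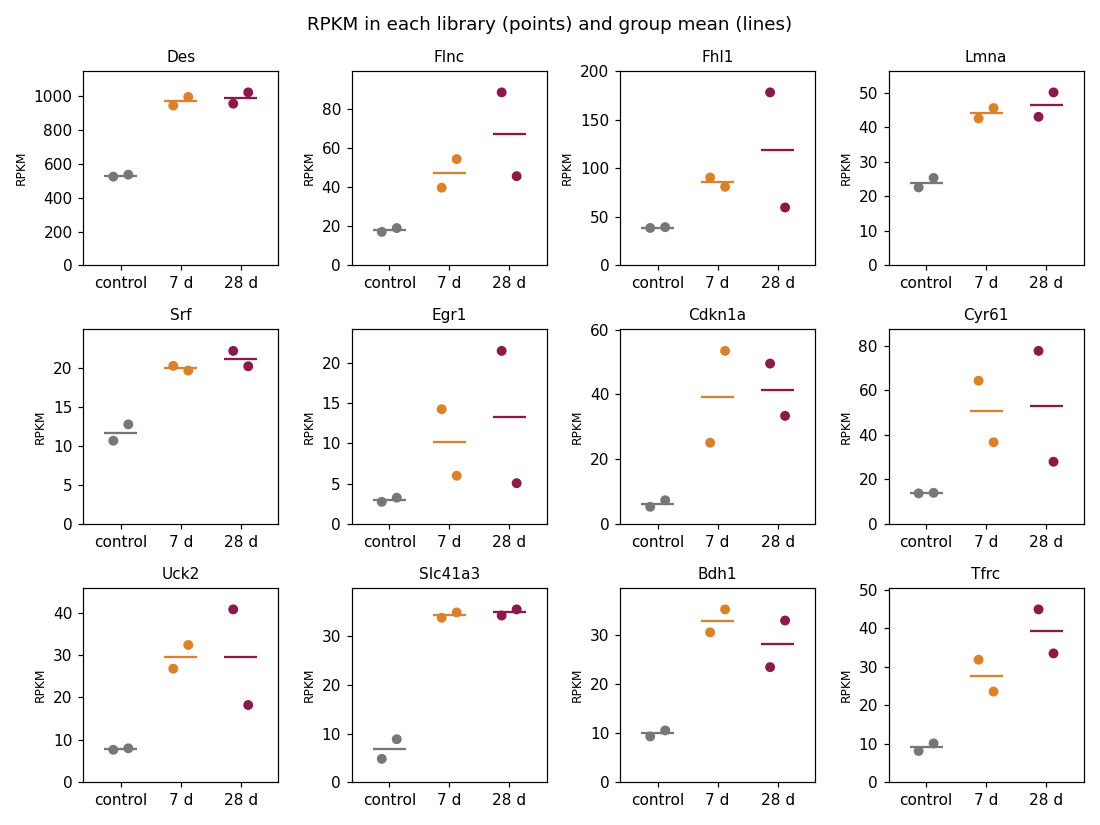
RPKM of 12 members in every library, with points for the 2 libraries of each group (replicate 1 left) and a line for the group mean; each panel has its own axis from 0. Des, Lmna, Srf and Slc41a3 have close replicates at both times, while Fhl1, Flnc, Egr1, Cyr61 and Uck2 have a higher first replicate at 28 days.

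Intermediate filament, lamin and tubulin genes gave 6 members with close replicates. Des encodes desmin, the filament protein that ties Z discs to each other and to the cell's edge, and was the most abundant member. It had 525 and 537 RPKM in controls, 945 and 996 RPKM at 7 days and 956 and 1023 RPKM at 28 days. All 4 Ang II libraries lay within a narrow band, with means of 971 ± 36.3 RPKM at 7 days and 990 ± 47.2 RPKM at 28 days (SD, n = 2 each). Lmna, which encodes the nuclear lamins A and C, had 22.6 and 25.4 RPKM in controls, 42.6 and 45.6 RPKM at 7 days and 43.1 and 50.2 RPKM at 28 days, again without separation of the infusion times.

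Lmnb2, another lamin, was a low member that separated the times, with means of 1.24 ± 0.0118 RPKM in controls, 3.12 ± 0.0713 RPKM at 7 days and 2.21 ± 0.0710 RPKM at 28 days. Beta tubulins Tubb2a, Tubb2b and Tubb6 are building blocks of microtubules, which stiffen loaded cardiomyocytes. Tubb2a had 11.1 and 14.1 RPKM in controls, 28.7 and 28.5 RPKM at 7 days and 29.8 and 27.9 RPKM at 28 days, and its 4 Ang II libraries were alike. Tubb2b was 2.79-fold and 2.54-fold higher at 7 and 28 days, and Tubb6 had 11.8 and 11.6 RPKM in controls, 23.7 and 23.0 RPKM at 7 days and 20.2 and 19.6 RPKM at 28 days, with the 7 day libraries the higher. Tubb2a and Tubb2b are neighbours and near-identical copies, so reads may have been shared between them and their separate values are uncertain.

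Transcription and chromatin genes made up 12 members, with a median change of 2.78-fold at 7 days and 2.13-fold at 28 days, and 7 of the 12 had the higher mean at 7 days. Srf, the factor that binds the CArG boxes of its own promoter shown above, was a modest and even member. It had 10.7 and 12.8 RPKM in controls, 20.3 and 19.7 RPKM at 7 days and 22.2 and 20.2 RPKM at 28 days. The Ang II libraries overlapped between times, at 1.70-fold and 1.81-fold over control.

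Egr1, an immediate early zinc finger factor, was the member with the widest replicates at 28 days. It had 2.74 and 3.25 RPKM in controls, 14.2 and 5.97 RPKM at 7 days and 21.4 and 5.04 RPKM at 28 days, so the first library of each Ang II group was 2.38 and 4.25 times the second. Gadd45g, a stress-induced regulator of growth arrest, had 7.70 and 5.88 RPKM in controls, 17.0 and 27.5 RPKM at 7 days and 31.2 and 14.1 RPKM at 28 days. Its higher library was the second at 7 days and the first at 28 days. Scx encodes scleraxis, a factor of tendon and of matrix-making fibroblasts, and had 1.31 and 1.92 RPKM in controls, 5.43 and 6.52 RPKM at 7 days and 5.41 and 9.38 RPKM at 28 days. It was one of the 3 members whose second 28 day library was the higher by over 1.5-fold.

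Myc, the growth-promoting factor, was low, at means of 0.998 ± 0.175, 2.93 ± 0.428 and 2.13 ± 0.504 RPKM in controls and at 7 and 28 days. Foxs1, a forkhead factor of pericytes, had 1.11 and 1.06 RPKM in controls, 4.49 and 4.14 RPKM at 7 days and 2.66 and 3.38 RPKM at 28 days, and both 7 day libraries lay above both 28 day libraries. Leo1, a subunit of the PAF complex on elongating RNA polymerase, was 2.75-fold and 2.13-fold higher. Creb3l1, a membrane-bound factor that promotes collagen secretion, was 2.81-fold and 2.23-fold higher. Lrrfip1, which binds RNA and the actin-associated protein Flightless, was the most abundant of this set, with 21.2 and 23.8 RPKM in controls, 38.2 and 37.9 RPKM at 7 days and 41.1 and 36.3 RPKM at 28 days. Together Nfil3, Lrrfip1, Smyd5 and Pprc1 lay between 1.69-fold and 2.44-fold at 7 days and between 1.53-fold and 1.91-fold at 28 days.

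Nfil3, a repressor in the output of the circadian clock, had 3.24 and 3.49 RPKM in controls, 7.43 and 9.01 RPKM at 7 days and 7.29 and 5.58 RPKM at 28 days. Of 21 other clock genes tested, 3 passed as higher and 9 as lower at 7 days, and 2 as higher and 8 as lower at 28 days. Over all tested genes 13.2% and 2.87% passed as higher at 7 and 28 days, and 2.27% and 1.54% as lower. The clock genes higher at 7 days were thus near the share of all tested genes. Arntl, the core activator, had 0.191 and 0.861 RPKM in controls, 9.54 and 9.49 RPKM at 7 days and 4.36 and 4.58 RPKM at 28 days (limma adjusted p = 0.000944 at 7 days and 0.00991 at 28 days). Dbp, which NFIL3 opposes at D-boxes, had 54.7 and 49.0 RPKM in controls, 2.92 and 1.79 RPKM at 7 days and 13.9 and 17.0 RPKM at 28 days (limma adjusted p = 0.000233 and 0.00933). Nr1d1, another abundant clock gene, passed at neither time (limma adjusted p = 0.343 at 7 days and 0.566 at 28 days). It had 19.5 and 32.9 RPKM in controls, 20.9 and 18.9 RPKM at 7 days and 27.4 and 33.0 RPKM at 28 days. Time of day is not given in the labels, and the part of these clock genes in the members' values was not tested.

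Signalling and growth control genes gave 11 members, led by Cdkn1a, which encodes the cyclin-dependent kinase inhibitor p21. It had 5.29 and 7.30 RPKM in controls, 25.1 and 53.4 RPKM at 7 days and 49.5 and 33.4 RPKM at 28 days. All 4 Ang II libraries were at least 3.43 times the higher control, although the 7 day replicates differed over 1.5-fold. The change of the means was 6.24-fold and 6.59-fold. Bok, the other member on the p53 list and a relative of BAX that promotes cell death, had 1.60 and 1.53 RPKM in controls, 3.60 and 3.95 RPKM at 7 days and 2.58 and 2.93 RPKM at 28 days, and its 7 day libraries were the higher. Among 29 other p53 and growth arrest genes, 3 passed as higher and 3 as lower at 7 days, and 0 as higher and 1 as lower at 28 days, where the shares of all tested genes were 13.2% higher and 2.27% lower at 7 days and 2.87% and 1.54% at 28 days.

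Errfi1, a feedback inhibitor of the EGF receptor, had 5.61 and 5.87 RPKM in controls, 9.69 and 16.7 RPKM at 7 days and 17.1 and 12.2 RPKM at 28 days, and the times overlapped. Rras2, a Ras-like GTPase, had 15.8 and 16.2 RPKM in controls, 27.0 and 26.0 RPKM at 7 days and 29.2 and 25.4 RPKM at 28 days, again with overlap of the times. Rhoj, a small GTPase of the endothelium, was 2.09-fold and 1.66-fold higher, and both 7 day libraries lay above both 28 day libraries. Nuak1, a kinase that acts on myosin phosphatase, lay nearest to the upper limit of the window, at 1.78-fold and 2.60-fold. The other 5, Alpk2, Inpp5j, Cnksr1, Efr3b and Evi5l, lay between 1.85-fold and 2.75-fold at 7 days and between 1.75-fold and 2.63-fold at 28 days.

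Secreted proteins, matrix proteins and receptors gave 16 members, of which 10 had the higher mean at 7 days. Among ligands, Cyr61, a matrix-associated protein of the CCN family and a target of YAP and TEAD, had 13.7 and 13.9 RPKM in controls, 64.2 and 36.6 RPKM at 7 days and 77.6 and 27.9 RPKM at 28 days. Controls were nearly equal, and the first library of each Ang II group was 1.75 and 2.78 times the second. Tgfb2, a ligand that drives fibroblast activation, had 1.15 and 0.941 RPKM in controls, 2.80 and 2.78 RPKM at 7 days and 4.01 and 2.97 RPKM at 28 days, with both 28 day libraries above both 7 day libraries. Agt encodes angiotensinogen, the precursor of the infused hormone, and had 1.48 and 1.45 RPKM in controls, 2.65 and 2.48 RPKM at 7 days and 3.41 and 3.68 RPKM at 28 days. It too separated the infusion times, at 1.75-fold and 2.42-fold over control.

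Among matrix proteins and their partners, Ecm1, Adamts15, Papln and Nbl1 had the higher mean at 7 days and Ntn4 at 28 days. Ecm1, a glycoprotein that binds perlecan and fibulin, had 8.04 and 9.08 RPKM in controls, 19.7 and 23.5 RPKM at 7 days and 15.04 and 15.3 RPKM at 28 days, so the 7 day libraries lay above the 28 day ones. Adamts15, a protease that cleaves versican, had 1.003 and 0.843 RPKM in controls, 2.34 and 3.94 RPKM at 7 days and 2.67 and 2.11 RPKM at 28 days, and its 28 day values overlapped those at 7 days. Papln, a papilin of basement membranes, was 2.59-fold and 1.91-fold higher. Nbl1, an extracellular BMP antagonist, was 2.52-fold and 1.84-fold higher, with the 7 day libraries above those at 28 days. Ntn4, a laminin-binding netrin, was 2.01-fold and 2.23-fold higher and reached 1.51 times the higher control in its lowest Ang II library, just inside the rule.

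Receptors among the members were Il4ra, the interleukin-4 receptor's alpha chain, and Icam1, the leukocyte adhesion molecule of endothelium. Il4ra had 2.10 and 2.45 RPKM in controls, 5.52 and 8.91 RPKM at 7 days and 5.11 and 5.001 RPKM at 28 days. Icam1 had 2.75 and 3.04 RPKM in controls, 5.55 and 6.63 RPKM at 7 days and 5.20 and 5.86 RPKM at 28 days. Both 7 day libraries of Il4ra, but only 1 of Icam1, lay above both 28 day libraries. Kremen1, Tspan9, Sema3f and Igfals lay between 1.77-fold and 2.46-fold at 7 days and between 1.98-fold and 3.34-fold at 28 days. The acute phase genes Hp and Saa3 were the least steady of this set. Hp, which encodes haptoglobin, had 0.889 and 0.972 RPKM in controls, 4.96 and 9.60 RPKM at 7 days and 7.36 and 2.64 RPKM at 28 days. Saa3, a serum amyloid made in inflamed tissue, had 0.204 and 0 RPKM in controls, 1.23 and 6.14 RPKM at 7 days and 4.59 and 1.84 RPKM at 28 days, and no fold is given because 1 control is listed at 0.

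Macrophage markers stood beside these inflammatory members at 7 days but not at 28 days. The summed RPKM of 10 macrophage markers, 0 of them under 1 RPKM throughout, was 382 and 386 in controls, 632 and 709 at 7 days and 344 and 252 at 28 days. The 9 neutrophil markers in the table summed to 2.19 and 1.80 RPKM in controls, 7.12 and 13.8 RPKM at 7 days and 34.2 and 126 RPKM at 28 days. S100a8 and S100a9 made up most of that sum, and 5 of the 9, including Ngp, Camp and Ltf, were under 1 RPKM in every library. The part of these cells in the values of Hp, Saa3, Il4ra and Icam1 was not tested.

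Metabolism and transport gave 16 members. Slc41a3, a magnesium carrier, was the steadiest of the large changes, with 4.84 and 8.87 RPKM in controls, 33.8 and 34.9 RPKM at 7 days and 34.3 and 35.5 RPKM at 28 days. The 4 Ang II libraries lay within 2 RPKM of each other, while the controls differed more, and the means were 5.01-fold and 5.09-fold over control. Tfrc, the transferrin receptor that takes up iron, had 8.17 and 10.1 RPKM in controls, 31.9 and 23.6 RPKM at 7 days and 44.96 and 33.5 RPKM at 28 days. Both 28 day libraries lay above both 7 day libraries. Bdh1, which oxidises the ketone body beta-hydroxybutyrate, had 9.38 and 10.6 RPKM in controls, 30.6 and 35.3 RPKM at 7 days and 23.5 and 33.0 RPKM at 28 days, with overlap between the times.

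Uck2, which phosphorylates uridine and cytidine for pyrimidine salvage, had 7.69 and 8.03 RPKM in controls, 26.8 and 32.4 RPKM at 7 days and 40.8 and 18.2 RPKM at 28 days. Its 28 day replicates lay on both sides of the 7 day values. Upp1, which cleaves uridine in the same salvage pathway, was 2.58-fold and 2.35-fold higher. Enzymes that branch from or belong to glycolysis were Pgam1, Gfpt2 and Psat1. Pgam1, the phosphoglycerate mutase, had 16.5 and 16.2 RPKM in controls, 28.9 and 36.0 RPKM at 7 days and 27.7 and 29.6 RPKM at 28 days, and its times overlapped. Gfpt2, the entry to the hexosamine pathway, had 2.74 and 3.37 RPKM in controls, 6.94 and 7.05 RPKM at 7 days and 6.02 and 5.60 RPKM at 28 days, with the 7 day libraries the higher. Psat1, of serine synthesis, had 1.27 and 1.248 RPKM in controls, 2.08 and 2.43 RPKM at 7 days and 3.13 and 2.06 RPKM at 28 days, and its 28 day libraries lay on both sides of those at 7 days. Of 68 other genes of glycolysis, glucose and nucleotide metabolism, 16 passed as higher and 2 as lower at 7 days, and 3 as higher and 0 as lower at 28 days, against 13.2% and 2.27% of all tested genes at 7 days and 2.87% and 1.54% at 28 days.

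Fuca2, a secreted fucosidase, had 35.2 and 37.8 RPKM in controls, 75.1 and 73.2 RPKM at 7 days and 61.0 and 71.4 RPKM at 28 days. Both 7 day libraries were above both 28 day libraries, but the nearest were close, at 73.2 and 71.4 RPKM. Slc12a7, a potassium chloride cotransporter, had 24.2 and 25.1 RPKM in controls, 39.3 and 42.0 RPKM at 7 days and 41.5 and 44.4 RPKM at 28 days, with overlap of the times. Cidea, a lipid droplet protein, had means of 17.1 ± 0.583, 31.0 ± 2.70 and 29.9 ± 2.72 RPKM in controls and at 7 and 28 days. Of the 8 adipocyte markers, of which Cidea is 1, 3 were under 1 RPKM in every library. The sum of all 8 was 21.4 and 24.7 RPKM in controls, 47.1 and 41.5 RPKM at 7 days and 89.1 and 31.3 RPKM at 28 days. Cidea itself gave most of that sum in every library but 28 day replicate 1, with 31.8 and 28.0 RPKM at 28 days. The 3 tested besides Cidea had median log2 changes of 1.05 at 7 days and 1.42 at 28 days, and 0 of the 3 passed limma at either time. Among them, Cfd had 2.37 and 5.12 RPKM in controls, 10.6 and 9.40 RPKM at 7 days and 40.01 and 2.34 RPKM at 28 days. In 28 day replicate 2 each of the 3 lay below its higher control. The part of adipocytes in Cidea's values was not tested. Slc25a1, Gda, Aqp8, Cyp1b1 and Hs6st1 completed the set, at 1.73 to 3.19-fold at 7 days and 1.60 to 3.50-fold at 28 days.

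Protein handling and ribosome assembly gave 8 members, and in 6 the 28 day mean was the higher. Ckap4, a membrane protein of the endoplasmic reticulum, had 4.35 and 5.10 RPKM in controls, 14.3 and 16.4 RPKM at 7 days and 12.8 and 14.2 RPKM at 28 days. Bysl and Rrp12, which help to assemble the small ribosomal subunit, were 1.68-fold and 2.01-fold higher at 7 days and 1.86-fold and 1.99-fold at 28 days. Hspa1l, a member of the Hsp70 family, had 2.04 and 2.38 RPKM in controls, 3.70 and 4.45 RPKM at 7 days and 5.53 and 4.98 RPKM at 28 days, with both 28 day libraries above both 7 day libraries, and its reads may be shared with related genes. Spsb3 and Spsb4, substrate adaptors of ubiquitin ligases, were 1.68-fold and 2.32-fold higher at 7 days and 2.01-fold and 2.62-fold at 28 days. The ubiquitin-conjugating Ube2ql1 and the aminopeptidase gene listed as 2010111I01Rik, now Aopep, were 1.91-fold and 1.88-fold higher at 7 days and 2.05-fold and 2.35-fold at 28 days.

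The last 17 members had other roles or none that could be stated, with a median change of 2.19-fold at 7 days and 1.98-fold at 28 days. Klhdc8a, a Kelch domain protein, had 1.77 and 2.44 RPKM in controls, 7.67 and 7.40 RPKM at 7 days and 10.0 and 9.95 RPKM at 28 days, and separated all 3 groups with close replicates. Cxx1b, now Rtl8b and one of several close copies on chromosome X, had 24.9 and 24.9 RPKM in controls, 38.0 and 39.97 RPKM at 7 days and 37.5 and 50.3 RPKM at 28 days, and was near the rule's lower limit in 28 day replicate 1. Apold1, an endothelial immediate early gene, was 3.09-fold and 2.62-fold higher, with a higher first library at both times. Fam198b, now Gask1b, lay nearest to the lower limit of the window, with both 7 day libraries (11.8 and 10.7 RPKM) above both 28 day libraries (7.66 and 7.55 RPKM). The deposited table had turned 25 symbols into dates, and 1 of these was a member (5-Sep), at 2.27-fold and 1.76-fold. The others were 2310022B05Rik, Gm6682, Plp2, 2010002N04Rik, Shisa4, 1810055G02Rik, 1500017E21Rik, Sergef, Ccdc68, Lingo3, Klhl34 and 6430571L13Rik, at 1.78 to 2.83-fold at 7 days and 1.69 to 3.02-fold at 28 days.

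Replicates of the members differed more often than those of other genes in the Ang II groups. At 28 days the replicates were over 1.5-fold apart in 19.6% of members, against 7.74% of all 9555 genes with a mean of at least 2 RPKM. At 7 days the shares were 12.7% of members and 4.03% of all these genes, and in controls 3.92% and 2.68%. The rule asked for a minimum in every Ang II library but set no limit on their spread, and the difference between the shares was not tested. At 28 days 17 members were high in the first library, namely Fhl1, Xirp2, Flnc, Cyr61, Uck2, Enah, Gadd45g, Pdlim3, Egr1, Nuak1, 2010111I01Rik, Apold1, Hp, Ntn4, Saa3, Klhl34 and Psat1. In the second library 3 were high, namely Scx, Shisa4 and Creb3l1. Over all 9555 genes the balance was the other way, with 248 high in the first and 492 in the second library. At 7 days 3 members were high in the first library, Cyr61, Egr1 and Apold1, all of which were also high in the first library at 28 days, and 10 were high in the second.

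**Figure D4:**
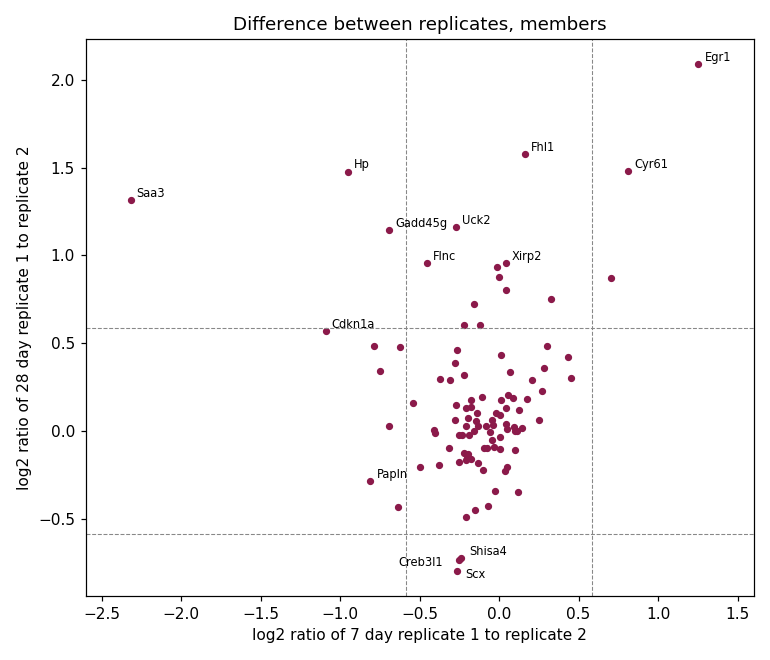
Each point is 1 of the 102 members; the horizontal axis is the log2 ratio of 7 day replicate 1 to replicate 2 and the vertical axis the same ratio at 28 days. Dashed lines mark a ratio of 1.5 either way: 17 members lie above the upper line, 3 below the lower line, and Egr1 and Cyr61 lie high on both axes.

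In each of 18 pathway lists, more of the genes that are not members passed as higher at 7 days than at 28 days, as over all tested genes (13.2% and 2.87%). Taking members out lowers the counts of the rest, and the lists were drawn up with earlier results of these data known. Of 59 other Z disc, costamere and intercalated disc genes, 22 passed limma as higher and 1 as lower at 7 days, and 13 as higher and 0 as lower at 28 days. Their median log2 changes were 0.38 and 0.30, against 0.14 and 0.01 over all tested genes. Csrp3, a muscle LIM protein, had 1237 and 1182 RPKM in controls, 1618 and 1522 RPKM at 7 days and 2444 and 1985 RPKM at 28 days (limma adjusted p = 0.0914 at 7 days and 0.0187 at 28 days). Tcap, the titin cap of the Z disc, had 1430 and 1442 RPKM in controls, 688 and 643 RPKM at 7 days and 1612 and 1633 RPKM at 28 days, and so was lower at 7 days (adjusted p = 0.00117) but did not pass at 28 days (adjusted p = 0.335).

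Of 22 other tubulin, microtubule and intermediate filament genes, 12 passed as higher at 7 days and 4 at 28 days, with 0 lower at either time. Over all tested genes 13.2% passed as higher at 7 days and 2.87% at 28 days. The list of actin regulators and nonmuscle myosins held 0 members. Enah and Zyx, which also act on actin, were on the Z disc list, and Shroom3 was on none. Of the 69 tested genes of the actin list, 45 passed as higher and 1 as lower at 7 days, against 6 and 0 at 28 days. Between the infusion times 0 of these 69 passed as higher and 19 as lower at 28 against 7 days, where 0.406% and 4.26% of all tested genes did so (45 and 473 genes, or 64 and 217 after median ratio scaling). Noncollagen matrix genes behaved likewise: of 57 that are not members, 37 passed as higher and 2 as lower at 7 days, 10 and 1 at 28 days, and 29 as lower at 28 against 7 days. Sparc, a collagen-binding matrix protein, had 172 and 166 RPKM in controls, 466 and 560 RPKM at 7 days and 145 and 210 RPKM at 28 days, and its 28 day values lay on both sides of the controls. Mgp, the matrix Gla protein, passed at both times, with log2 changes of 0.98 and 0.52 (adjusted p = 0.00272 and 0.0482).

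Over all tested genes 13.2% passed as higher and 2.27% as lower at 7 days, and 2.87% and 1.54% at 28 days. At 28 against 7 days 4.26% of them passed as lower. The cell cycle list held 0 members, and 15 of its 23 tested genes passed as higher at 7 days and 0 at 28 days. Of these 23, 16 passed as lower at 28 against 7 days. In the complement, acute phase and macrophage list, which holds Hp and Saa3, 48 of the other 63 passed as higher and 1 as lower at 7 days, 2 and 2 at 28 days, and 35 were lower at 28 against 7 days. The transcription factor list held 5 members, Srf, Egr1, Foxs1, Myc and the growth arrest regulator Gadd45g. Scx and Creb3l1 were on no list, and Nfil3 was on the clock list. Of the other 97 genes of the transcription factor list, 20 passed as higher and 5 as lower at 7 days, and 6 and 2 at 28 days. The chaperone list held 1 member. Of the other 46, 6 passed as higher at 7 days, near the share of all tested genes, and 3 at 28 days, with 0 lower at either time. Cryab, the small heat shock protein that guards desmin, passed at both, with log2 changes of 0.55 and 0.80 (adjusted p = 0.0244 and 0.0184). In the TGF-beta, BMP and activin list 16 of 41 passed as higher and 2 as lower at 7 days, and 6 and 0 at 28 days.

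The remaining lists had few members. Beside their counts, 13.2% of all tested genes passed as higher and 2.27% as lower at 7 days. At 28 days these shares were 2.87% and 1.54%. Of 54 matrix crosslinking and turnover genes, 33 passed as higher and 2 as lower at 7 days, and 9 and 0 at 28 days. Growth factors and cytokines had 24 of 67 higher and 2 lower at 7 days, and 7 and 1 at 28 days. Receptors and adhesion molecules had 35 of 90 higher and 5 lower at 7 days, and 2 and 1 at 28 days. Kinases, phosphatases and G protein regulators had 21 of 110 higher and 4 lower at 7 days, and 10 and 1 at 28 days. Ion channels and calcium handling, with 0 members, had 17 of 77 higher and 7 lower at 7 days, and 5 higher and 5 lower at 28 days. Ubiquitin ligases, proteolysis and autophagy had 2 of 41 higher and 6 lower at 7 days, and 1 higher and 3 lower at 28 days. The members Spsb3, Spsb4 and Ube2ql1 were on none of the lists.

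**Figure D5:**
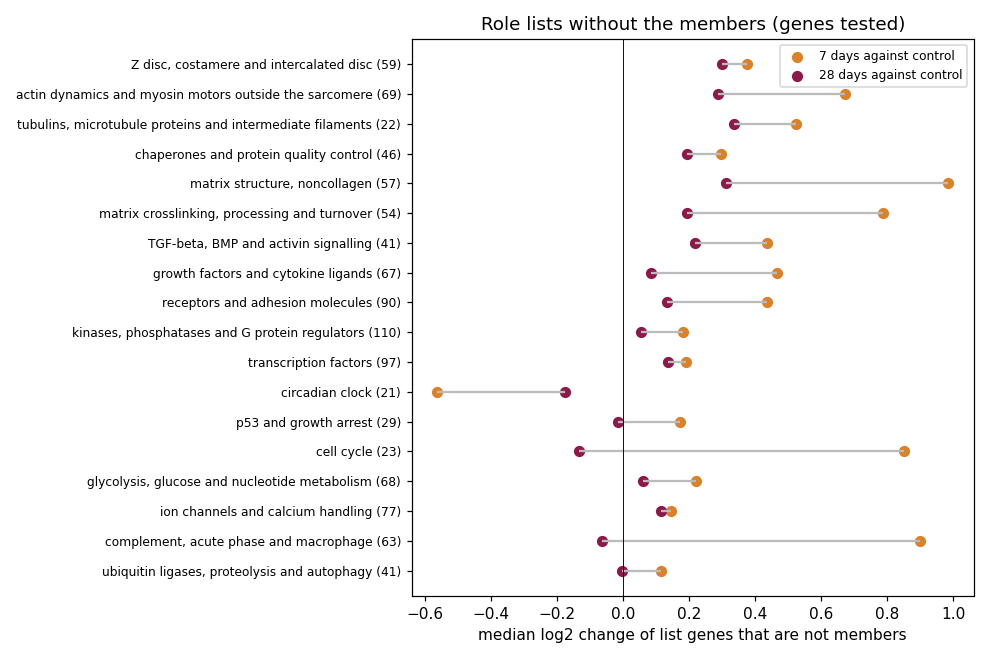
Median log2 change from control of the genes in each of the 18 pathway lists that are not members, at 7 days (orange) and 28 days (dark red), with the number of tested genes in brackets. The Z disc list lies at 0.38 and 0.30, whereas the cell cycle, matrix and macrophage lists lie far higher at 7 than at 28 days.

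Marker sums of fibroblasts and endothelium were highest at 7 days. The summed RPKM of 10 fibroblast markers was 1009 and 1040 in controls, 1364 and 1370 at 7 days and 1105 and 893 at 28 days. Gsn and Dcn together gave most of it. Gsn had 489 and 508 RPKM in controls and 429 and 384 RPKM at 7 days. Col1a1 had 10.0 and 11.6 RPKM in controls and 55.3 and 75.1 RPKM at 7 days. Endothelial markers summed to 1441 and 1277 in controls, 1583 and 1759 at 7 days and 1276 and 1327 at 28 days. Fabp4 gave most of this sum, with 1144 and 994 RPKM in controls, 1211 and 1324 RPKM at 7 days and 991 and 961 RPKM at 28 days. Smooth muscle and pericyte markers summed to 752 and 778, 1272 and 1290, and 1173 and 1258 RPKM in the same order, but Des is one of the 10 and gave most of the sum. The 8 atrial markers set the controls far apart, at 337 and 3089 RPKM. Their sums were 2054 and 2248 RPKM at 7 days and 2464 and 3458 RPKM at 28 days. Nppa gave most of each sum, with 1932 and 2084 RPKM at 7 days. Myl7 had 52.5 and 646 RPKM in controls, 41.2 and 66.2 RPKM at 7 days and 341 and 182 RPKM at 28 days. Its 7 day values, and those of Myl4, were nearer to control replicate 1 than to replicate 2. In Dkk3 this held only for the first 7 day library. The part of cell composition in the members' values was not tested.

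Promoters in the RefSeq table matched 80 of the 102 members, which had 107 promoters, and both these and the 10167 promoters of all tested genes had a median GC content of 60.7%. Both strands were searched for 10 motifs, and 1 base may belong to several matches. MCAT (CATTCC) was in 15.9% of member promoters, 17 promoters of 13 genes, against 12.4% of promoters of tested genes and 14.7% of all 32851 promoters. The 13 included Flnc, Cyr61, Pdlim3, Ehbp1l1, Errfi1 and Slc41a3. The CArG box was in 2.80% of member promoters, those of Srf, Fhl1 and Rhoj, against 1.40% of promoters of tested genes and 1.63% of all. In Rhoj it overlaps an MCAT match. MEF2 was in 2.80% (Xirp2, Leo1 and Spsb3), against 1.99% and 3.19%.

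AP-1 (TGANTCA) was in 9.35% of member promoters, against 5.13% of promoters of tested genes and 7.81% of all, and its 9 genes included Xirp2, Zyx, Lmna, Upp1 and Ecm1. The SMAD element (CAGACA) was in 20.6%, against 15.4% and 21.0%, and the E-box of clock and MYC proteins (CACGTG) in 9.35%, against 10.0% and 7.15%. The D-box was in 3.74%, against 2.01% and 3.38%, the GATA element (AGATAA) in 4.67%, against 6.38% and 11.2%, the heat shock element in 5.61%, against 5.90% and 7.86%, and the TATA box (TATAAA) in 11.2%, against 7.44% and 13.6%. These shares describe the windows, and no difference between them was tested.

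Members lay on 20 chromosomes, with 9 each on chromosomes 1, 13 and 19. Among tested genes, 7 pairs of members were next to each other, namely Nuak1 and Ckap4, Tubb2a and Tubb2b, Cidea and Tubb6, Rrp12 and Pgam1, Sergef and Saa3, Sorbs2 and Pdlim3, and Agt and 2310022B05Rik. Counting by strand is not stated in the sources used here, so overlapping genes on opposite strands cannot be told apart.

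The limits of the rule cut through a continuum. Just inside the 1.5-fold limit on the lowest Ang II value were Pprc1 at 1.50, Ntn4 at 1.51 and Smyd5 at 1.51, and just outside were Rfc3 at 1.50, Bcar1 at 1.49 and Mif at 1.49, where Rfc3 missed the limit in the next digits. Pprc1 had 2.08 and 2.15 RPKM in controls, 3.44 and 3.85 RPKM at 7 days and 3.25 and 3.24 RPKM at 28 days, Ntn4 had 1.87 and 1.94 RPKM in controls, 3.81 and 3.84 RPKM at 7 days and 5.59 and 2.93 RPKM at 28 days and Smyd5 had 2.48 and 3.17 RPKM in controls, 5.37 and 5.34 RPKM at 7 days and 4.77 and 4.89 RPKM at 28 days. Rfc3 had 1.71 and 1.57 RPKM in controls, 3.31 and 3.83 RPKM at 7 days and 2.76 and 2.57 RPKM at 28 days, Bcar1 had 3.76 and 3.90 RPKM in controls, 6.05 and 7.35 RPKM at 7 days and 5.83 and 6.52 RPKM at 28 days and Mif had 19.2 and 23.4 RPKM in controls, 44.9 and 39.6 RPKM at 7 days and 34.9 and 53.3 RPKM at 28 days. Genes on both sides of the limit thus had all 4 Ang II libraries above both controls. For the ratio of 28 to 7 day means, Fam198b at 0.676 was inside and Litaf at 0.659 outside the lower limit, and Nuak1 at 1.46 inside and Fstl3 at 1.58 outside the upper one. For abundance, 6430571L13Rik at 2.01 RPKM was inside and Cpne2 at 1.93 RPKM outside.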

How the data were processed

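Hearts of control mice, entered under day 0, and of mice after 7 or 28 days of Ang II were profiled by RNA sequencing, 2 libraries per group. The deposited values were RPKM made by the authors, as the column names of the deposited table say. The submitters' processing notes name TopHat2 2.0.12, Bowtie 0.12.9, HTSeq, DESeq2 and the builds mm8 and mm9, without their roles, and the annotation is not given in the sources used here. Promoters came from RefSeq on GRCm38.p6, matched by symbol, and no coordinates were carried between builds.

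The rule was applied to the deposited RPKM. The members, the 18 pathway lists, the 13 marker lists and the tests were chosen with earlier results of these data known. For the background and for list genes that are not members, RPKM were log2 transformed after adding 0.5, which understates changes of low genes, genes with a mean of at least 1 RPKM were kept, and group means over the 6 libraries were estimated in limma 3.58.1 with trended, moderated variances (3 residual and 4.21 prior degrees of freedom). To pass, a gene needed a p under 0.05 after Benjamini-Hochberg adjustment over the 11096 tested genes. The p-values measure the spread between libraries, which may be technical. Depth is known only as a ratio between libraries, and the total of reads is not given in the sources used here.

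Library values are given in the text for the 12 members with the largest change at both times, the 12 most abundant, up to 4 of each list and the genes nearest to the limits, and up to 3 abundant genes of a list that are not members were eligible for naming. Klhdc8a and other members outside these lists are named where their product is known. Arntl was named as the clock's core activator, although it is not among the 3 most abundant clock genes that are not members. The fit was tested on simulated data. Alternatives were other pseudocounts, filters, scalings and fits, other limits of the rule, and each library left out in turn. Software was R 4.3.3 and Python 3.11.15, the second with matplotlib 3.10.9, pandas 2.3.3 and numpy 2.4.6.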

Additional observations from a re-analysis of the deposited data

Results flagged for a closer look

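Among the list genes named for abundance that are not members, 15 differed between the infusion times by limma's test of 28 against 7 days itself. Each is a log2 difference, positive where the 28 day libraries were higher. The adjusted p over 11096 genes lay between 0.00264 and 0.0489. In this comparison 0.406% of all tested genes passed as higher at 28 days and 4.26% as lower. The count of lower genes depended on the scaling, with 473 as deposited and 217 after median ratio scaling.

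Among the muscle genes, Tcap differed by 1.29 and Trim54, a muscle RING finger protein, by 0.53. Clock output genes Dbp and Tef differed by 2.51 and 0.998. Lower at 28 days were the matrix genes Sparc (-1.55) and Serpinh1 (-0.83), a collagen chaperone, and the secreted Fstl1 (-1.40) and Igfbp7 (-0.92). Macrophage-rich Lyz2 (-1.32) and C1qb (-1.18) and the lysosomal protease Ctsb (-0.81) were lower too. So were Vim (-1.001), the filament protein of nonmuscle cells, Tmsb4x (-0.68), which binds free actin, Lgals1 (-0.53) and the calcium channel regulator Rrad (-0.89). In each of the 15 genes both 28 day libraries lay on 1 side of both 7 day libraries. Nothing is read from this, since passing with 2 libraries per group nearly requires it.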

How the results depend on the processing

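The members depend on the rule's limits and on single libraries. A looser limit over the higher control gave 373 members, one of 2-fold gave 22 and a mean of at least 5 RPKM gave 60. Median ratio scaling gave 76 members, 65 of them shared with the 102, and quantile normalization gave 77, with 62 shared. Leaving out 1 library gave 114 to 214 members, with 214 without control replicate 2 and 189 without 28 day replicate 1. A library left out removes a condition of the rule, which by itself tends to raise the count. Without either control all 102 members were kept, and without 28 day replicate 1 86 were kept. Without 28 day replicate 2, Fhl1, Xirp2, Flnc, Cyr61, Tfrc, Egr1 and Nuak1 were among 12 members lost. The members' median log2 change at 7 days was 1.14 with a pseudocount of 0.1, 0.93 with 1, 0.87 with median ratio scaling and 0.85 with quantile normalization, and 0.97 to 1.07 with 1 library left out. At 28 days it was 0.81 with a pseudocount of 1 and 0.87 to 1.01 with 1 library left out. Of 840 alternative values of the log2 changes of 42 named members, 782 moved by less than the spread between replicates and 58 by more, where the rule held the members' direction. These scalings moved the median of all genes at 7 days to -0.02 (median ratio) and -0.04 (quantile), against 0.14 as deposited. The share of calls that were higher at 7 days was then 61.2% and 57.0%, against 85.3%. At 28 against 7 days it was 22.8% and 20.3%, against 8.69%.

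Counts over all tested genes moved as follows. Higher at 7 days were 1461 genes, 710 with median ratio scaling and 701 with quantile normalization, and 340 to 1899 with 1 library left out. Lower at 7 days were 252, 450 and 528 with these scalings, 167 with a mean of at least 5 RPKM, and 52 to 353. Higher at 28 days were 318, 45 without a filter, 165 with only the groups compared, and 23 to 264. Lower at 28 days were 171, 16 without a filter, 69 with only the groups compared, and 10 to 147. At 28 against 7 days 45 were higher, 25 without a filter, 29 with a mean of at least 5 RPKM, 23 with only the groups compared, and 6 to 94. Lower were 473, 239, 266 and 264 under the same settings, 217 and 212 with the scalings, and 21 to 595. Each of these 6 counts moved by over 1.5 times without control replicate 1, control replicate 2, 7 day replicate 1 or 7 day replicate 2. Genes higher at 28 against 7 days (94) did so without 28 day replicate 2, and genes lower at 28 days (113) and lower at 28 against 7 days (223) without 28 day replicate 1. With 1 library left out, its partner was taken to vary as much as libraries elsewhere. The cause of these shifts was not tested.

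The main fit did not pair libraries by replicate number. Correlations of same-numbered deviations over the tested genes were 0.149 (7 days and control), -0.0193 (28 days and control) and -0.0139 (28 and 7 days). Whether same-numbered libraries shared a batch was not tested. With the replicate block 1280 genes were higher and 216 lower at 7 days, 249 higher and 110 lower at 28 days, and 31 higher and 323 lower at 28 against 7 days.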
